A study of Mus musculus with 12 samples.

Results

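The medial piece of the cerebral hemisphere was compared with the ventral piece in mouse embryos at stage E16.5. The comparison takes 4 of the 12 arrays of the series, chosen by their titles: medial replicates 1 and 2 and ventral replicates 1 and 2. All 4 hold RNA of mouse cortex at that stage. The labels name no treatment or genotype and give neither strain nor sex, nor how many embryos went into a sample. The other 8 arrays hold the dorsal, rostral and occipital pieces and the whole hemisphere, with 2 arrays each, and serve here for the estimate of spread and to place the medial and ventral levels. According to the protocol text, poly(A)+ RNA was copied into biotin-labelled cRNA for Affymetrix murine oligonucleotide arrays, and the replicates come from separate dissections.

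In the embryonic telencephalon the pallium forms the cortex and hippocampus and makes glutamatergic projection neurons. The subpallium, made of the ganglionic eminences, forms the striatum and makes GABAergic neurons, some of which migrate into the cortex. Radial glia divide at the ventricle, and in the pallium many of their daughters pass through an intermediate progenitor stage before they become neurons, while postmitotic neurons later acquire synaptic proteins and neuropeptides.

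Each value is the deposited average difference of a probe set, the mean of perfect-match minus mismatch signals, which is linear and can be below 0. Values under a floor of 695 were set to it before log2 was taken, so that a difference against such a value is an underestimate. A fold is written as "at least" where both arrays of the lower side lie at or under the floor. Log2 differences carry no such mark, though those of Gad2, Lhx8, Tac1, Ebf2, Tgfa, Drd2, Meis2, Cxcr4, Nfia and Aurka, among others, are bounds too. Where both arrays of a piece are set to the floor, that piece adds no spread, which can make the standard error too small. The 4 arrays had similar distributions, with medians of 744 to 851 and 39.8% to 41.6% of probe sets above 1390, the level a probe set had to pass on at least 2 of the 12 arrays to be tested. For beta-actin, signal near the 5′ end over signal near the 3′ end, which falls as cDNA gets shorter, was 0.725 and 0.887 on the medial arrays and 0.665 and 0.856 on the ventral arrays (replicates 1 and 2), so it differed more between replicates than between pieces. The same ratio for GAPDH was 1.16 and 1.14 on the medial arrays and 0.982 and 1.09 on the ventral arrays. Their part in the results was not tested. Of 8 telencephalic marker genes, 3 had a probe set (Tbr1, Pax6 and Sox2), and all 3 were above the testing level on the 4 arrays except Pax6 on ventral replicate 2, at 1304. The number of arrays limits the precision throughout. In tissue pieces, fewer cells of a type and less RNA per cell cannot be told apart.

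The medial and ventral pieces differed at 657 of 5825 tested probe sets, which is 11.3% (limma, Benjamini-Hochberg adjusted p under 0.05). Of these, 354 were higher in medial (6.08%) and 303 were lower (5.2%). The median size of a called difference was 1.18 on the log2 scale, the smallest was 0.521, and 441 exceeded 2-fold. By gene, counted as called where any of its probe sets passed, 570 of 4558 were called (12.5%), 311 higher (6.82%) and 259 lower (5.68%), and these shares are the background for the counts over gene lists. The lists were written with earlier results of these data known, so their shares are descriptions. Klc1, a kinesin light chain, is the 1 gene with probe sets called both ways. The median difference over all tested probe sets was 0.04. Every array bears on the count: leaving out medial replicate 1 left 248 probe sets (128 higher, 120 lower), medial replicate 2 left 253 (137 and 116), ventral replicate 1 left 215 (120 and 95) and ventral replicate 2 left 255 (147 and 108). Of these smaller sets, 235, 245, 213 and 246 probe sets were also among the 657. A fit of the 4 medial and ventral arrays alone, which has fewer residual degrees of freedom, called 354, of which 311 were among the 657. At an unadjusted p under 0.05, 1424 probe sets passed.

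Taken separately, both replicates gave the same picture over most probe sets. Medial minus ventral in replicate 1 correlated with medial minus ventral in replicate 2 at r = 0.746 across the 5825 probe sets, which are not independent replicates, and the pairs share no array. The sign was equal for 4393 probe sets (75.4%) and opposite for 1343 (23.1%), and 89 had no difference above the floor in at least 1 replicate. Both sets of differences had nearly the same spread, with an SD of 0.689 in replicate 1 and 0.686 in replicate 2. A difference of 1 log2 unit or more was reached by 703 probe sets in replicate 1 and by 716 in replicate 2. Of these, 428 reached it in both with the same sign, 60.9% of the first list and 59.8% of the other, and 6 with opposite signs. In all 657 called probe sets replicates 1 and 2 shared the sign, with median sizes of 1.20 in replicate 1 and 1.13 in replicate 2, and 359 of them reached 1 log2 unit in each. A further 69 reached it in each and were not called.

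**Figure D1:**
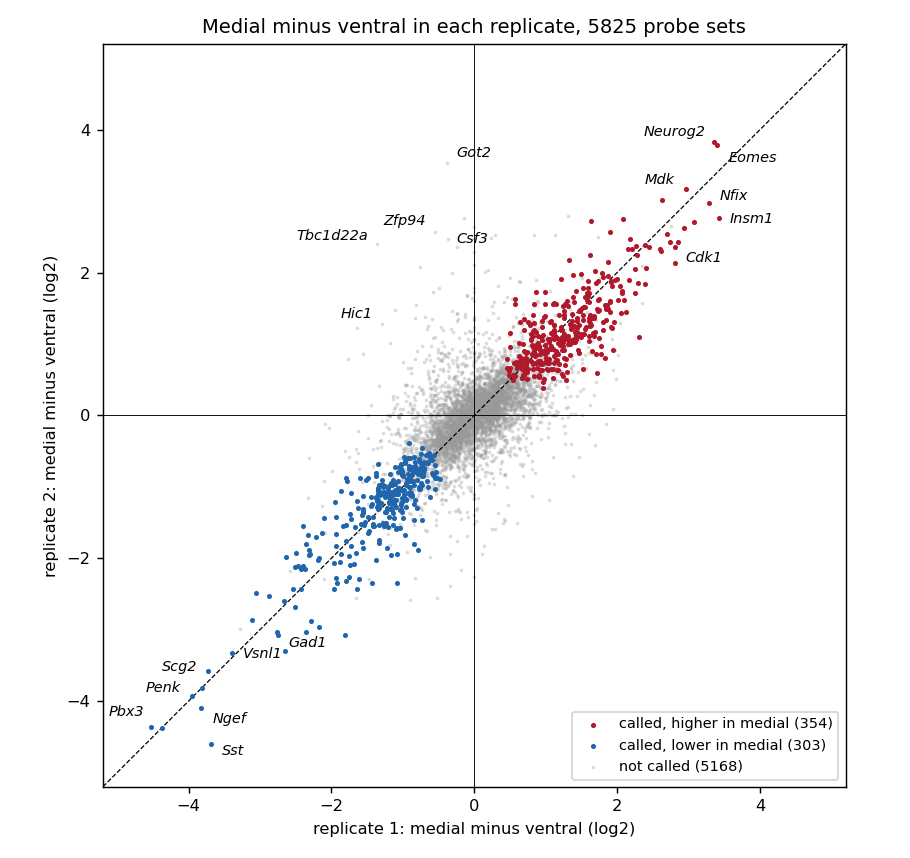
Medial minus ventral on the floored log2 scale in replicate 1 (x axis) against replicate 2 (y axis), 1 point per tested probe set, with called probe sets in red (354, higher in medial) and blue (303, lower in medial), the rest in grey, and the dashed line marking equal differences. The called probe sets follow the dashed line at upper right and lower left, while Got2, Tbc1d22a, Zfp94, Csf3 and Hic1 lie at upper left.

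The genes highest in medial relative to ventral were led by transcription factors of dividing pallial progenitors. Eomes (Tbr2), the T-box factor of intermediate progenitors, read 7361 and 9542 on the medial arrays and 231 and 240.1 on the ventral arrays. Both ventral values lie under the floor, and at this probe set medial was at least 12.1-fold higher. The log2 difference was 3.59 ± 0.30 (SE, adjusted p = 0.000658 by limma), 3.40 in replicate 1 and 3.78 in replicate 2. The other tested probe set of Eomes was called at a smaller difference of 1.86. Neurog2, the basic helix-loop-helix factor that starts neurogenesis in the pallium, read 7141 and 9904 on the medial arrays and 155 and 483 on the ventral arrays. The groups again did not overlap, which is no separate evidence in genes chosen for a large called difference. The difference of 3.60 ± 0.49 (adjusted p = 0.00322) amounts to at least 12.1-fold. Insm1, a zinc-finger factor of cells leaving the ventricular zone, read 8456 and 12347 on the medial arrays and 786 and 1819 on the ventral arrays. Its difference was 3.10 ± 0.41 (adjusted p = 0.00303), 3.43 and 2.76 in replicates 1 and 2. All 3 calls held with any 1 of the 4 arrays left out.

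Over the whole list of pallial progenitor factors, 10 of 11 tested genes were higher in medial, against 6.82% of all tested genes, and 0 were lower. Earlier results of these data were known when the list was written, so this share is a description. The median difference was 1.65, with 1.80 in replicate 1 and 1.70 in replicate 2, beside 0.04 over all. Sstr2, a somatostatin receptor, read 10269 and 6183 on the medial arrays and 1934 and 1478 on the ventral arrays and was 4.71-fold higher in medial (adjusted p = 0.00443, limma). Its 2 other tested probe sets gave smaller log2 differences of 1.45 and 1.36, and 1 of them was called. Gadd45g, a growth-arrest and stress gene, was at least 3.88-fold higher, with 2782 and 2619.5 on the medial arrays against 628 and 534 on the ventral arrays. Both ventral values of Gadd45g are under the floor, so only a bound can be given. Mfng, a fringe enzyme that modifies Notch receptors, differed by 1.65 ± 0.21. Smaller calls were Neurod1 (1.50), Tcf4 (1.38), Pax6 (1.13) and Hes6 (0.72), all log2 differences and none of which held with every array left out in turn. Btg2, an antiproliferative gene, was at 0.75 ± 0.32 and did not pass. Across the list 6 of the 10 calls held in all 4 leave-outs. The summed level of the tested members was 87651 and 99784 on the medial arrays, against 25253 and 30493 on the ventral arrays.

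**Figure D2:**
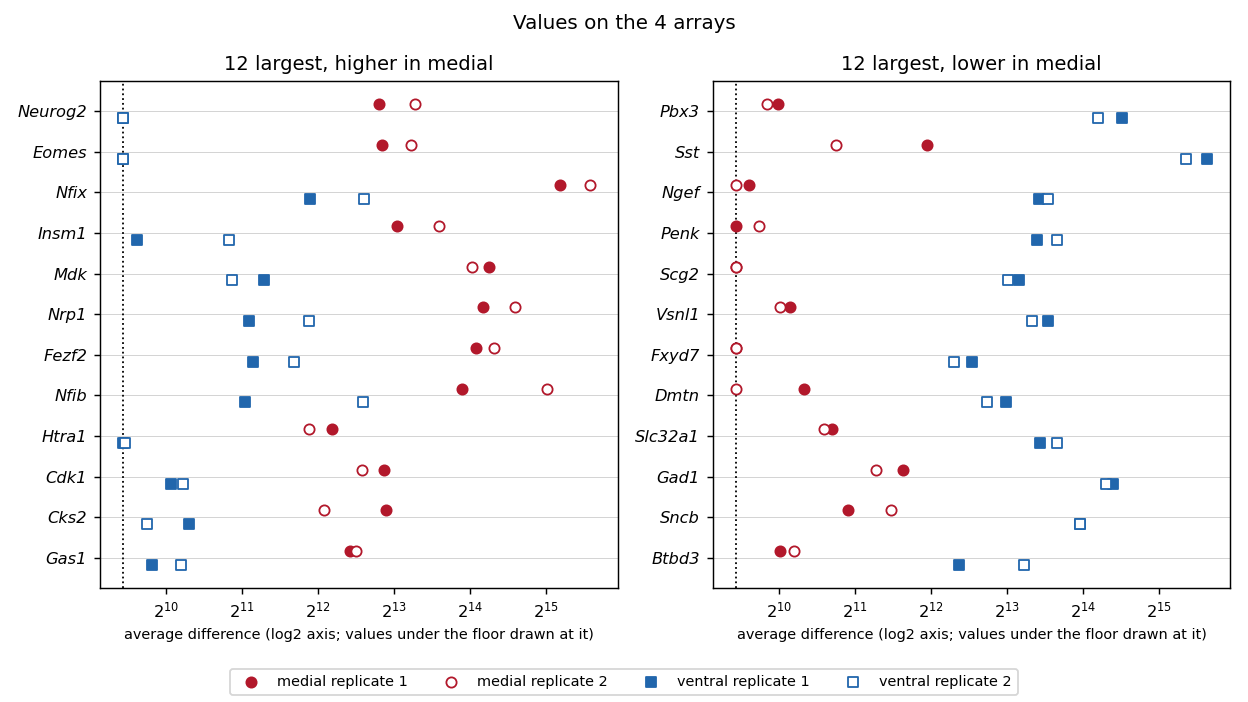
Average difference (log2 axis, with values under the floor drawn at it, dotted line) on the 4 arrays for the 12 genes with the largest log2 difference in each direction, medial as red circles and ventral as blue squares, replicate 1 filled and replicate 2 open. No gene has overlapping medial and ventral values, which largely follows from choosing the largest called differences. Eomes, Neurog2, Scg2 and Fxyd7 have both arrays of their lower side at the floor.

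Genes of the cell cycle were higher in medial in most cases. Of 41 tested, 28 were higher (68.3%, against 6.82% of all tested genes) and 0 lower, with a median difference of 1.30 (1.38 in replicate 1 and 1.29 in replicate 2). Cdk1, the kinase that drives entry into mitosis, read 7510.1 and 6115 on the medial arrays and 1074 and 1197 on the ventral arrays. All medial values exceed all ventral ones by a wide margin, and the difference was 2.58 ± 0.17 (adjusted p = 0.000288), or 5.98-fold. Cks2, a small subunit that binds this kinase, read 7658 and 4334 on the medial arrays and 1267 and 862 on the ventral arrays and was 5.51-fold higher in medial. Among DNA replication genes, Rrm1, a subunit of ribonucleotide reductase, read 4874 and 4388 on the medial arrays and 1027 and 1065 on the ventral arrays, a difference of 2.14 ± 0.19 (adjusted p = 0.000741). The helicase subunits Mcm2 (1.94), Mcm5 (1.79), Mcm7 (1.50), Mcm3 (1.48) and Mcm4 (1.01) were all higher in medial. The other tested probe set of Mcm5 was at 0.63 and not called, and that of Mcm3 was called at 1.66. Mitotic genes followed, with Ccna2 (1.98), Cdc20 (1.89), Ccnb2 (1.59), Mad2l1 (1.68) and Aurka (1.04), and so did the chromatin protein Hmgb2 (2.24). Mki67 and Pcna, widely used proliferation markers, passed narrowly at 1.68 ± 0.46 (adjusted p = 0.0476) and 0.95 ± 0.26 (adjusted p = 0.0498). The G1 cyclins did not pass: Ccnd1 was at -0.06 ± 0.22, Ccnd2 at 1.66 ± 0.83 and Ccne1 at -1.18 ± 0.99. Stmn1, a microtubule regulator, and Tubb5, a tubulin, were at -0.09 and -0.04 and not called. Of the 28 calls, 13 held with each array left out, Cdk1, Rrm1, Mcm2, Cdc20 and Ccnb2 among them.

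Promoters of 2 mitotic and 2 replication genes are printed because these genes were higher in medial together. The mitotic pair carries the CCAAT box (CCAAT, or ATTGG on the opposite strand) and the cell cycle homology region, CHR (TTTGAA, or TTCAAA), elements known from genes switched on before mitosis. Capitals mark these matches, all read from 250 bases before to 50 after the annotated start in RefSeq (GRCm38.p6), on the minus strand of chr10:69352863-69353162 for Cdk1 and chr9:70421505-70421804 for Ccnb2.
Cdk1: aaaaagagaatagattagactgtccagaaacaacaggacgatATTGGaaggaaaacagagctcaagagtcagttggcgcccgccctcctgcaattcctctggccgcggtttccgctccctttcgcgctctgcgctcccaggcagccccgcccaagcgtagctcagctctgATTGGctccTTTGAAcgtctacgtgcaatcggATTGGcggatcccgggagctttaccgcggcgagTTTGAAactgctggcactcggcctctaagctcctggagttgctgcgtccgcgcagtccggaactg
Ccnb2: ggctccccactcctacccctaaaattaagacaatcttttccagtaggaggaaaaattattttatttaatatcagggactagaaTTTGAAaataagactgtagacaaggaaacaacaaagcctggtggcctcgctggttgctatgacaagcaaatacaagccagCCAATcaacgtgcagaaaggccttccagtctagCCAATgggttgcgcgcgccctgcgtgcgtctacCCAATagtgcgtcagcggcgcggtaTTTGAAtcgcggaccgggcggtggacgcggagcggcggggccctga
The replication genes Mcm3 (chr1:20820263-20820562, minus strand) and Mcm7 (chr5:138171834-138172133, minus strand) carry matches to E2F sites, searched as TTTCCCGC and TTTGGCGC on both strands, in capitals here, with their CCAAT matches left in lower case.
Mcm3: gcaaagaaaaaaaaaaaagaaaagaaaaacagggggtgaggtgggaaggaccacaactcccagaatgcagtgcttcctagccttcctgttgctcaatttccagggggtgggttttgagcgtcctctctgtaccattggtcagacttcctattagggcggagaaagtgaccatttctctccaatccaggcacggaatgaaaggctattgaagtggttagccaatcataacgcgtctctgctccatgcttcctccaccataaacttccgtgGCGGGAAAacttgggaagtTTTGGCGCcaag
Mcm7: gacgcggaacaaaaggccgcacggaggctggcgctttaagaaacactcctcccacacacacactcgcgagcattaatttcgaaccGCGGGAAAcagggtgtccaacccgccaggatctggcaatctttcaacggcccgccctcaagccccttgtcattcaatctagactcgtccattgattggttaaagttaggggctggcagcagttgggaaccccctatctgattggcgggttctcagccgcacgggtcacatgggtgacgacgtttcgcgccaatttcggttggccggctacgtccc
In the Cdk1 promoter CHR matches begin at -71 and -15 relative to the start and CCAAT matches at -208, -80 and -48. In the Ccnb2 promoter CHR matches begin at -167 and 4, and CCAAT matches at -87, -54 and -21. The table held a promoter for 24 of the 28 cell cycle genes higher in medial, of which 13 had a CHR match and 20 a CCAAT match, 12 of them both. Of 9 tested members with a promoter that were not called, 3 had both. An E2F match was found in 4 of the 24 (16.7%) and in 2 of the 9 (22.2%). Both were present in 5.19% of 3696 tested genes and 7.12% of all 27025 promoters, CHR alone or with CCAAT in 11.5% and 18.1%, CCAAT in 38.5% and 37.9%, and an E2F match in 3.57% and 1.63%. No motif here contains another. A match describes the letters and is neither a shown binding site nor a cause.

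Radial glia genes were partly higher in medial, at 50% of those tested against 6.82% of all tested genes. Of 22 tested, 11 were higher and 0 lower, with a median of 0.88, and 3 of the calls held in all 4 leave-outs (Prom1, Aldoc and Hopx). Prom1, which encodes the apical membrane protein prominin, read 3299.9 and 3296 on the medial arrays and 887 and 1211 on the ventral arrays, a difference of 1.67 ± 0.19 (adjusted p = 0.00138). Aldoc, a glycolytic aldolase, read 18809 and 17396 on the medial arrays and 5605 and 6267 on the ventral arrays and Hopx, a homeodomain-only protein, read 8015 and 6480.5 on the medial arrays and 2727 and 2806 on the ventral arrays. Neither gene's groups overlap, and the differences were 1.61 ± 0.21 and 1.38 ± 0.22. The neural progenitor factor Sox3 was higher by 2.11, the intermediate filament Nes by 0.82, the tetraspanin Cd9 by 1.59 and the lipid-binding Dbi by 0.94. Several genes that define radial glia did not pass: Fabp7, a fatty acid binding protein, read 47696 and 51608 on the medial arrays and 54953 and 53285 on the ventral arrays (-0.13 ± 0.16), and Sox2 was at 0.07 ± 0.37. The list shares 7 genes with other groups described here: Pax6, Sox2, Id3, Hes1, Notch1, Tead2 and Fgfr2.

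Through the Notch pathway neighbouring progenitors hold back each other's differentiation. Of its 11 tested genes, 5 were higher in medial (45.5%, against 6.82% of all tested genes) and 0 lower, with a median of 0.91. The receptor Notch1 read 3209.5 and 3481 on the medial arrays and 11.5 and -85.4 on the ventral arrays at the called probe set. Both ventral values are under the floor, and the difference was at least 4.81-fold (2.27 ± 0.39 (adjusted p = 0.00814), limma), while the gene's other tested probe set was at 0.87 and not called. The receptor Notch2 (0.91) and the nuclear mediator Rbpj (1.27) passed too, and the target Hes1 (1.08 ± 0.40) and the ligand Dll1 (1.15 ± 0.56) did not. Only Mfng, among the 5, held in all 4 leave-outs.

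Of 19 Wnt pathway genes, 3 were higher in medial (15.8%, against 6.82% of all tested genes) and 1 was lower (5.26%, near the 5.68% of all). Sfrp1, a secreted Wnt antagonist, read 5299.7 and 4694 on the medial arrays and 1247 and 674 on the ventral arrays and was 5.36-fold higher in medial, and the receptors Fzd2 (1.40) and Fzd8 (1.10) were higher too. Tcf7l2, a nuclear effector, read -366 and 368 on the medial arrays and 2135 and 3400.4 on the ventral arrays and was lower in medial by -1.95 ± 0.36 (adjusted p = 0.0105), on a probe set of a type that may also detect related sequences. None of the 4 calls held with every array left out. Markers of the medial pallium and the cortical hem, the signalling centre at its edge, gave 0 calls among 7 tested genes, by limma, with a median of 0.36. Zbtb20, a hippocampal zinc-finger factor, read 1518 and 4107 on the medial arrays and 118 and 712 on the ventral arrays, with a difference of 1.83 ± 0.73 (adjusted p = 0.16). It was the highest of the 7, of which 3 were higher and 2 lower in medial on both replicates. The 2 lower were Zic1 (-1.13 ± 0.96) and Nr2f1 (-0.69 ± 0.82). The summed level of the 7 was 20554 and 23137 on the medial arrays, against 27559 and 25667 on the ventral arrays. Another 13 listed hem and medial genes had a probe set under the testing level, Wnt3a, Wnt5a and Prox1 among them.

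Transcription factors of projection neurons included some of the largest differences. Nfix, of the nuclear factor I family, read 37275 and 48876 on the medial arrays and 3816 and 6241 on the ventral arrays. It was 8.75-fold higher in medial (3.13 ± 0.39 (adjusted p = 0.00201)), and its other probe set was called as well (2.82). Nfib read 15306 and 33226 on the medial arrays and 2109 and 6179.7 on the ventral arrays. Its replicates differ by over 2-fold within each piece, all medial values lie above all ventral ones, and the difference of 2.64 ± 0.64 (adjusted p = 0.0306) lost its call with 3 of the 4 arrays left out in turn. The other members of the family were Nfia at 1.00 ± 0.46 and Nfic at 0.98 ± 0.28, neither called. Fezf2, which directs neurons to project below the cortex, read 17301 and 20369 on the medial arrays and 2262 and 3292 on the ventral arrays, a difference of 2.78 ± 0.40 (adjusted p = 0.0038) that held in all 4 leave-outs.

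Over the list of projection neuron genes, 5 of 14 were higher in medial (35.7%, against 6.82% of all tested genes). Lower in medial was 1 (7.14%, near the 5.68% of all), and the median was 1.00. The bHLH factor Neurod6 (1.36) and the HLH inhibitor Id2 (0.99) passed in addition to the nuclear factor I genes and Fezf2. Tbr1, the T-box factor of early-born cortical neurons, read 15211 and 14107 on the medial arrays and 20333 and 21076 on the ventral arrays. It lay slightly lower in medial on both replicates, at -0.50 ± 0.23, and was not called. Nrgn, a calmodulin-binding protein of maturing neurons, read 236 and 181 on the medial arrays and 3378 and 5109.6 on the ventral arrays and was lower in medial, at least 5.98-fold, with a call (adjusted p = 0.0442, limma) that no leave-out kept. Pou3f3, an upper-layer factor, was at 1.97 ± 0.58 (adjusted p = 0.0653).

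Secreted and surface proteins completed the 12 leading genes. Mdk, the heparin-binding growth factor midkine, read 19542 and 16751 on the medial arrays and 2508 and 1869 on the ventral arrays. It was 8.36-fold higher in medial (3.06 ± 0.21 (adjusted p = 0.000288)), nearly equal in both replicates (2.96 and 3.16). Gas1, a membrane-anchored Hedgehog co-receptor, read 5488 and 5804 on the medial arrays and 899 and 1177 on the ventral arrays, a difference of 2.46 ± 0.21 (adjusted p = 0.000658). Nrp1, a receptor for semaphorins and vascular growth factor, read 18434 and 24623 on the medial arrays and 2186 and 3784 on the ventral arrays. Its groups lie far apart, at 2.89 ± 0.58 (adjusted p = 0.015), and both its probe sets passed, but the call held in 1 of 4 leave-outs. Htra1, a secreted serine protease, read 4663 and 3788 on the medial arrays and 565 and 702 on the ventral arrays and differed by 2.59 ± 0.45, also held in 1 of 4. Igfbp3, which binds insulin-like growth factors, was 2.24 higher, with 3273 and 3491 on the medial arrays and 733 and 535 on the ventral arrays, while Igf1 and Igf2 were not called (-0.34 and -0.46). Among immediate early genes, Ier2 was higher in medial (1.87 ± 0.26) and the heat shock gene Hspa1b lower (-1.22 ± 0.18), and 7 of the 10 tested were not called.

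Markers of the choroid plexus, which borders the medial wall, moved in part with medial. Ttr, the transthyretin gene of this epithelium, read 2151 and 4564 on the medial arrays and 329 and 84.2 on the ventral arrays. Both ventral values are under the floor, the medial values differ from each other by over 2-fold, and the difference was at least 4.51-fold (2.17 ± 0.53 (adjusted p = 0.0316), held in 1 of 4 leave-outs). Of 5 tested markers 2 were higher in medial (40%, against 6.82% of all tested genes). The call besides Ttr was Igfbp2 (0.55), which cortical tissue also expresses. The median was 0.54, and the summed level was 25866 and 32649 on the medial arrays, against 20782 and 22383 on the ventral arrays. Kl, a defining marker, was under the floor on all 4 arrays, and Aqp1 was at 0.54 ± 0.75. The part of choroid plexus tissue in the other medial differences was not tested.

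The genes lowest in medial relative to ventral included neuropeptide, GABAergic and striatal genes. These lists share called members: Sst and Npy count as neuropeptide and GABAergic genes, and Penk as a neuropeptide and a striatal gene. Sst, the precursor of somatostatin, read 3969 and 1730 on the medial arrays and 50907 and 42183 on the ventral arrays. The lowest ventral value lies far above the highest medial one, and the difference of -4.14 ± 0.40 (adjusted p = 0.00108) was -3.68 in replicate 1 and -4.61 in replicate 2. Scg2, secretogranin 2 of dense-core granules, read 397 and 152 on the medial arrays and 9187 and 8316 on the ventral arrays. Both medial values are under the floor, so it was at least 12.6-fold lower (-3.65 ± 0.20 (adjusted p = 0.000121)). Penk, the precursor of enkephalin, read 366 and 856 on the medial arrays and 10804 and 12985 on the ventral arrays on a probe set of a type that may also detect related sequences, a difference of -3.94 ± 0.50 (adjusted p = 0.00238); its other probe set was at -0.95 and not called. Resp18 of endocrine granules was at least 4.81-fold lower, Npy, neuropeptide Y, was lower by -1.80 ± 0.15 and the granin Chgb by -1.05 ± 0.15. Vsnl1, a neuronal calcium sensor counted in this list although it is no granule protein, read 1138 and 1036 on the medial arrays and 11974 and 10369 on the ventral arrays and was 10.3-fold lower (-3.36 ± 0.22 (adjusted p = 0.000288)).

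Of 19 tested granule and neuropeptide genes, 7 were lower in medial, against 5.68% of all tested genes, and 0 were higher, with a median of -0.84. All 7 calls held in the 4 leave-outs. Tac1, the precursor of substance P, read 59.9 and 122 on the medial arrays and 4158 and 3154 on the ventral arrays and missed the threshold (-2.38 ± 0.66 (adjusted p = 0.0517)). The rostral (398 and 1947) and occipital (2322 and 445) replicates of Tac1, which enter its error, lay far apart. Their order was crossed: rostral replicate 1 lay near occipital replicate 2, and rostral replicate 2 near occipital replicate 1. The reason for this was not tested. Other peptide genes were closer to each other, with Cck at -0.67 ± 0.56, Gal at -0.44 ± 0.32 and Trh at -0.14 ± 0.43, and so were the granule genes Scg3 (0.04) and Scg5 (-0.22).

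The promoters of Sst and Scg2 are shown because both hold the cAMP response element, CRE, known for its role in the Sst promoter. It was searched as TGACGTCA, which reads the same on both strands, and is in capitals in the RefSeq windows (GRCm38.p6, minus strand) chr16:23890795-23891094 for Sst and chr1:79439977-79440276 for Scg2.
Sst: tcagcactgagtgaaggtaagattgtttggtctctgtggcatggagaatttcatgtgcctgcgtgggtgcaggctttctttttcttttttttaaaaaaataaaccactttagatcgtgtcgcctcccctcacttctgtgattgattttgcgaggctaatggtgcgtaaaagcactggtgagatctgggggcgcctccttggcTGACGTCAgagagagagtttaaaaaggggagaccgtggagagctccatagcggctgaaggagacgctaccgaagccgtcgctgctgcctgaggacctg
Scg2: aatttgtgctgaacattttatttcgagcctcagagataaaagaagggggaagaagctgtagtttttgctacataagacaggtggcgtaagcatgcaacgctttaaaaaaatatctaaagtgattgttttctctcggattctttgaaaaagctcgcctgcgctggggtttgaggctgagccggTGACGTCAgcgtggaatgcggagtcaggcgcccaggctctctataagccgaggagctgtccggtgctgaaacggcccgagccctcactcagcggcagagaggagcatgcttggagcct
The match begins at -48 in Sst and at -68 in Scg2. Of the 7 genes lower in medial 6 had a promoter in the table, and 3 held the motif: Sst, Scg2 and Chgb. Among 11 members that were not called it was found in 0, among 3696 tested genes in 3.52% and among all promoters in 1.88%. Absence of these letters from the window says nothing of the factor.

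Of 14 tested GABAergic and ganglionic eminence genes, 7 were lower in medial (50%, against 5.68% of all tested genes). Higher in medial was 1 (7.14%, near the 6.82% of all), and the median was -1.48 (-1.63 and -1.42 in replicates 1 and 2). Gad1, the enzyme that makes GABA, read 3184 and 2478 on the medial arrays and 21535 and 20368 on the ventral arrays. Slc32a1, which loads GABA into vesicles, read 1665 and 1550.2 on the medial arrays and 11147 and 13009.9 on the ventral arrays. Neither overlaps between pieces, and medial was 7.46-fold lower for Gad1 (-2.90 ± 0.31 (adjusted p = 0.00118)) and 7.5-fold lower for Slc32a1 (-2.91 ± 0.32 (adjusted p = 0.00129)). Calb1, the calcium buffer calbindin, was at least 6.21-fold lower, and the homeobox genes Dlx5 (-1.96 ± 0.54) and Lhx6 (-0.91 ± 0.17) were lower by less. Values that did not pass were those of Dlx1 (-1.10 ± 0.38), Dlx2 (-0.94 ± 0.44), Gad2 (-1.16 ± 0.38) and Lhx8 (-3.14 ± 0.94). Lhx8 read 152 and 252 on the medial arrays against 6752 and 5537 on the ventral arrays. The error pools the spread of all 6 groups, and Lhx8 replicates lay far apart in rostral (152 and 4648) and occipital (4665 and 617). Their order was crossed between these pieces as for Tac1. Cxcr4, the chemokine receptor of migrating interneurons and Cajal-Retzius cells, went the other way at 1.38 ± 0.32. Sst, Npy, Gad1, Slc32a1 and Calb1 held in all 4 leave-outs. The summed level of the list was 32743 and 28026 on the medial arrays, against 147586 and 129949 on the ventral arrays.

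Of 7 tested genes of striatal projection neurons, 3 were lower in medial (42.9%, against 5.68% of all tested genes) and 0 higher, with a median of -1.26. Pbx3, a homeodomain factor of the TALE class, had the largest difference of all named genes. It read 1022 and 917 on the medial arrays and 23535 and 18826 on the ventral arrays, and medial was 21.7-fold lower (-4.44 ± 0.49 (adjusted p = 0.00131)), -4.53 in replicate 1 and -4.36 in replicate 2. Its 2 other probe sets were called too, at -4.37 and -3.82. Penk, given above, is also among the 3. The dopamine receptor Drd2 was lower by -1.26 ± 0.33, and the factors Foxp1 (adjusted p = 0.101) and Meis2 (-1.25 ± 0.44) did not pass. Pde1b, a phosphodiesterase, was at 1.06 ± 0.37 and not called. Rxrg and Isl1, further striatal markers, did not meet the rule for testing, with Rxrg at -457 and -263 on the medial arrays and 2112 and 1163 on the ventral arrays. The summed level of tested members was 12960.3 and 10905 on the medial arrays, against 49302 and 43587 on the ventral arrays. The part that striatal or other subpallial tissue in the ventral piece has in the differences was not tested.

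Of 7 genes listed for the ventral pallium, piriform cortex and amygdala, 0 were higher in medial, and the median was -1.16. Lower in medial were 3 (42.9%, against 5.68% of all tested genes). Besides Npy these were Tgfa, an epidermal growth factor receptor ligand (-1.46 ± 0.32), and the netrin receptor Unc5c (-1.18 ± 0.25). Sfrp2, a secreted Wnt antagonist of this region, was at -0.17 ± 0.20 and Reln, the Cajal-Retzius glycoprotein reelin, at -0.55 ± 0.35, neither called. Among 4 tested Cajal-Retzius markers, Ebf2 was lower in medial (-1.31 ± 0.19), Cxcr4 higher, and Reln and Calb2 (0.04) not called.

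**Figure D3:**
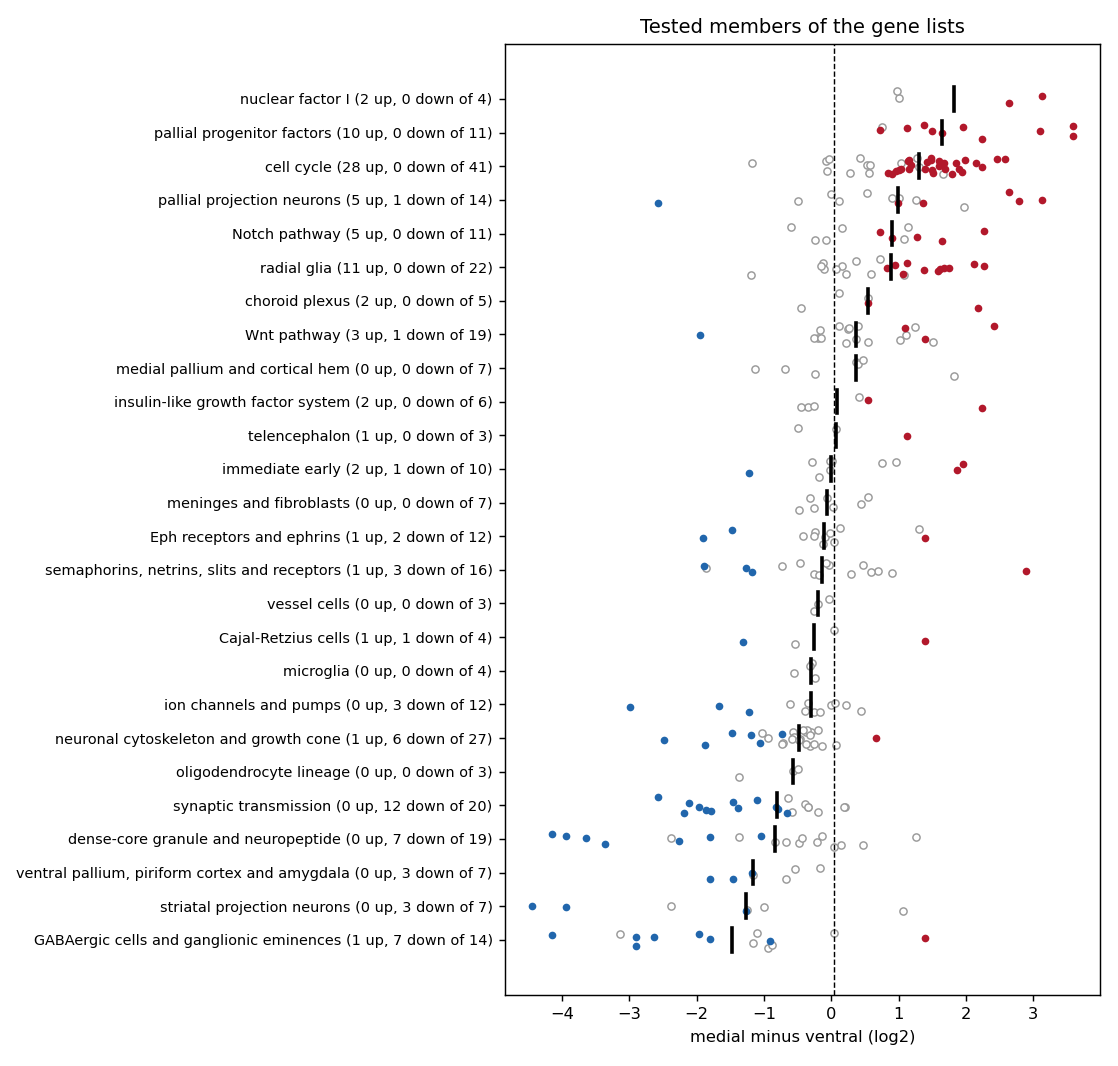
Log2 difference, medial minus ventral, of the tested members of each gene list (one row per list with at least 3 tested members, ordered by median), with called members filled (red higher and blue lower in medial), the others open, a black bar at the list's median and a dashed line at the median of all tested genes. Of these rows, the pallial progenitor, nuclear factor I and cell cycle lists lie furthest to the right and the GABAergic, striatal and ventral pallium lists furthest to the left.

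Synaptic genes were lower in medial in most cases. Of 20 tested, 12 were lower (60%, against 5.68% of all tested genes) and 0 higher, with a median of -0.80 (-0.89 and -0.82 in replicates 1 and 2). Nsf, the ATPase that recycles the membrane fusion machinery, read 1559 and 1347 on the medial arrays and 7037 and 10549 on the ventral arrays, a difference of -2.57 ± 0.25 (adjusted p = 0.00109). Stx1a, a syntaxin of the presynaptic membrane, read 1063 and 1303 on the medial arrays and 5228 and 5014 on the ventral arrays, and Dnm1, the dynamin of vesicle retrieval, read 7384 and 5271 on the medial arrays and 24936 and 20724 on the ventral arrays. All 3 have ventral values well above the medial ones, and their calls held in all 4 leave-outs. The vesicle proteins Syn2 (-2.20), Syp (-1.97), Syt1 (-1.79) and Syt5 (-1.46) and the kainate receptor subunit Grik1 (-1.39) were lower as well. Smaller differences were those of Vamp2, a vesicle protein, at -0.79 ± 0.16 and of Snap25, a protein of the plasma membrane, at -0.67 ± 0.18. The AMPA receptor subunits Gria1 (-0.64 ± 0.40) and Gria2 (-0.39 ± 0.24) did not pass. Sncb, beta-synuclein, which is outside that list, read 1921 and 2848 on the medial arrays and 15949.8 and 16018 on the ventral arrays and was lower by -2.77 ± 0.48 (adjusted p = 0.00831), held in 1 of 4 leave-outs.

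Genes of the neuronal cytoskeleton and growth cone were lower in medial in part. Of 27 tested, 6 were lower in medial (22.2%, against 5.68% of all tested genes). Higher in medial was 1 (3.7%, against 6.82%), and the median was -0.47. The surface glycoprotein Thy1 read 1152 and 1422 on the medial arrays and 6716 and 7681 on the ventral arrays, a difference of -2.49 ± 0.40 (adjusted p = 0.00557), and the light neurofilament Nefl was at least 3.69-fold lower. The growth cone protein Gap43 read 19320 and 23257 on the medial arrays and 46918 and 50015 on the ventral arrays and was lower by -1.19 ± 0.18, and the neuronal enolase Eno2 by -1.47 ± 0.27. Tagln3, an actin-associated neuronal protein, was higher (0.66 ± 0.14). Dcx (-0.30 ± 0.15) and Tubb3 (-0.20 ± 0.17), which mark young neurons of every kind, were not called. Thy1 and Gap43 held in all 4 leave-outs.

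Membrane and signalling genes filled the rest of the 12 leading differences. Ngef, a signalling protein that acts after Eph receptors, read 782 and 27.8 on the medial arrays and 11048 and 11928 on the ventral arrays. The medial array of replicate 2 lies under the floor, and the difference was -3.96 ± 0.58 (adjusted p = 0.00389). Fxyd7, a regulator of the sodium pump, read 178 and -1387 on the medial arrays and 5983 and 5065 on the ventral arrays and was at least 7.92-fold lower (-2.99 ± 0.53 (adjusted p = 0.00907)), and Dmtn, the actin-bundling protein dematin, read 1295 and 455 on the medial arrays and 8124 and 6832 on the ventral arrays and was lower by -2.97 ± 0.53. These calls held in 1 (Fxyd7) and 2 (Dmtn) of 4 leave-outs, and in all 4 for Ngef. Btbd3, which orients dendrites, read 1041 and 1181 on the medial arrays and 5302 and 9639 on the ventral arrays, a difference of -2.69 ± 0.33 (adjusted p = 0.00201) held in all 4. Among 12 ion channel and pump genes 3 were lower (25%, against 5.68% of all tested genes) and 0 higher. The 3 lower were Fxyd7, the potassium channel Kcnd2 (-1.66 ± 0.31) and the pump subunit Atp1b1 (-1.23 ± 0.17).

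Some axon guidance genes were called in each direction, with few calls in all. Epha7, a receptor for ephrin-A ligands, read 472 and 556 on the medial arrays and 2541 and 2663 on the ventral arrays and was at least 3.74-fold lower in medial (-1.90 ± 0.16 (adjusted p = 0.000658)). The ligand Efnb3 read 6742 and 7535 on the medial arrays and 20005 and 19834 on the ventral arrays and was lower by -1.48 ± 0.17, whereas the related ligand Efnb1 read 5829.5 and 6626 on the medial arrays and 1977 and 2819 on the ventral arrays and was higher by 1.40 ± 0.29. Efnb2, the third B ligand, was at 0.04 ± 0.18 and not called. Over 12 tested Eph and ephrin genes the median was -0.12, with 1 higher (8.33%, near the 6.82% of all tested genes) and 2 lower (16.7%, against 5.68%). Of 16 semaphorin, netrin and slit genes, 1 was higher (6.25%) and 3 were lower (18.8%). Nrp1 was higher, and the receptors Plxnd1 (-1.89 ± 0.43) and Unc5c and the ligand Sema4a (-1.27 ± 0.20) were lower. The ligand Ntn1 read 1077 and 1410.2 on the medial arrays and 4604 and 4398 on the ventral arrays without passing (-1.87 ± 0.69 (adjusted p = 0.133)).

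Markers of other cells that a dissected piece can hold gave few calls. Blood, vessel, meningeal, microglial and oligodendrocyte lists had 0 calls by limma among 2, 3, 7, 4 and 3 tested genes, with medians of -0.08, -0.20, -0.06, -0.30 and -0.58. Another 6, 9, 7, 7 and 4 listed genes had a probe set that did not meet the rule for testing, so these lists say little about equal content. The 3 oligodendrocyte genes and 3 of the 4 microglial genes lay lower in medial on both replicates. Hba-a1, a haemoglobin chain, read 70657 and 78318 on the medial arrays and 85335 and 70897 on the ventral arrays (-0.06 ± 0.18), Cldn5, of vessel tight junctions, was at -0.20 ± 0.16 and Pdgfra, of oligodendrocyte precursors, at -1.37 ± 0.51 (adjusted p = 0.133). The thalamic list had 1 tested gene, Tcf7l2, lower in medial as given above. Gbx2, another thalamic marker, was under the floor on all 4 arrays.

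The dorsal piece lay nearer to medial than to ventral. In the same fit, medial and dorsal differed at 4 probe sets (0.0687%), and dorsal and ventral at 308 (5.29%); these comparisons share arrays with the medial to ventral one. The 4 probe sets belong to Npy, Ccl4, Pter and Hopx, named because they are few. Npy read 4479.5 and 4552 in medial and 26128 and 27369.7 in dorsal, above its ventral level of 17194 and 14337. Hopx read 8015 and 6480.5 in medial against 2332 and 2124 in dorsal, near its ventral level. The chemokine Ccl4 read 524 and 419.5 in medial and 2746 and 3822 in dorsal, a log2 difference of -2.22, and was under the floor on both ventral arrays. Pter, a phosphotriesterase-related gene, read 1665 and 1508 in medial against 405 and 649 in dorsal.

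Between both extremes, each other group was placed on a scale from 1 at the medial mean to 0 at the ventral mean for the 657 called probe sets. The median position was 0.731 for dorsal, 0.648 for rostral, 0.645 for occipital and 0.594 for the whole hemisphere. At some genes, such as Tac1 and Lhx8, the rostral and occipital means each average 2 arrays that lay far apart in crossed order. The part of this in the positions and extremes given here was not tested. Dorsal was nearer to medial than to ventral at 545 of them (83.0%), rostral at 510 (77.6%), occipital at 483 (73.5%) and the hemisphere at 434 (66.1%). Over all tested probe sets the shares were 64.1%, 60.1%, 57.8% and 56.1%. Among probe sets lower in medial the median position was 0.761 for dorsal, 0.559 for rostral and 0.554 for occipital, and among those higher in medial 0.714, 0.713 and 0.695. Of the probe sets higher in medial, 297 of 354 (83.9%) had medial as the highest and ventral as the lowest of the 5 pieces, and of those lower in medial 255 of 303 (84.2%) had the reverse. The pair was chosen because it holds most extremes, so these shares are a description.

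**Figure D4:**
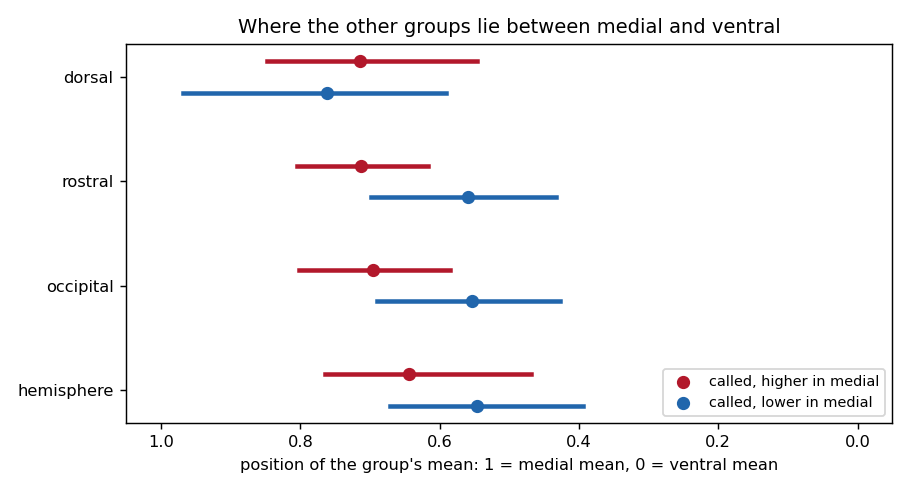
Median position (point) and quartiles (line) of each other group between the medial mean (1, left) and the ventral mean (0, right) over called probe sets, in red for those higher in medial and in blue for those lower. All medians lie on the medial side of the middle, and the dorsal one for probe sets lower in medial is closest to medial at 0.761.

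Single genes show how the pieces in between are ordered. Eomes read 4460.2 and 5764 in dorsal, 5122 and 3404 in rostral, 2355 and 4076 in occipital and 2512 and 2831 in the hemisphere, all between its medial and ventral levels. Mdk read 13342 and 11619.8 in dorsal and 12809 and 16733 in occipital, so that ventral alone stood apart. Gad1 read 3224 and 2701 in dorsal, overlapping its medial values, and 9787 and 13984 in rostral, between both pieces. Sst likewise read 4296 and 2876 in dorsal and 11583 and 18887 in occipital.

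**Figure D5:**
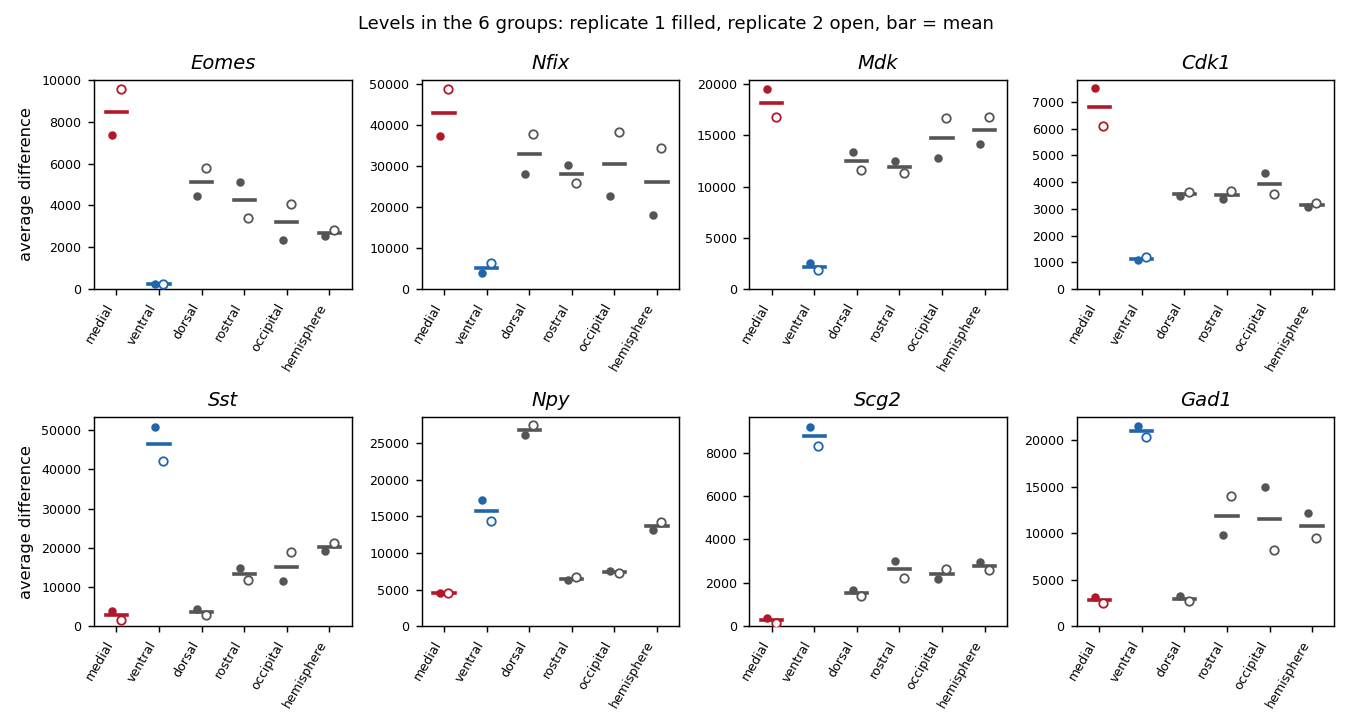
Average difference of 8 genes in the 6 groups (linear axis from 0), with replicate 1 filled, replicate 2 open and a bar at the mean of 2 arrays. Eomes, Nfix, Mdk and Cdk1 are lowest in ventral, Sst, Scg2 and Gad1 are highest there, and Npy is highest in dorsal.

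At some genes the replicates disagreed, and none of these was called. The 5 genes with opposite signs and the widest gap between replicates were Got2, Tbc1d22a, Zfp94, Csf3 and Hic1. Got2, the mitochondrial aspartate aminotransferase, read 3707 and 10703 on the medial arrays and 4827 and 920 on the ventral arrays, giving -0.38 in replicate 1 and 3.54 in replicate 2. Its medial replicate 2 and ventral replicate 2 lie farthest apart. Tbc1d22a read -81.4 and 3672 on the medial arrays and 1792 and -1394 on the ventral arrays (-1.37 and 2.40), and Zfp94, a zinc-finger gene, read 3021 and 4109.9 on the medial arrays and 4434 and -274 on the ventral arrays (-0.55 and 2.56). Csf3, a colony-stimulating factor, gave -0.37 and 2.46, and Hic1, a transcriptional repressor, gave -1.30 and 1.28. In 4 of these 5, all but Got2, at least 1 of the 4 arrays was under the floor.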

How the data were processed

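Poly(A)+ RNA from pieces of E16.5 mouse cortex was hybridised to Affymetrix murine arrays, per the labels' protocols, and each array was scanned 2 times. The deposited intensity per probe set is the average difference, per the labels, whose account of the analysis stops after naming it; software is not given in the sources used here. The authors had scaled the arrays: 2% trimmed means lay between 2501.6 and 2501.9, so no further scaling was applied. The piece titled rostral is called lateral in the protocol text, and total RNA is given as the molecule; titles and protocol were followed.

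Of 12488 probe sets 66 controls were left out. The floor, 695, is the root mean square of the negative values of the others. Probe sets above 2 times the floor (1390) on at least 2 of 12 arrays were tested, 5825 or 46.9%. Of these, 5285 map to 1 gene symbol by the platform annotation, making 4558 genes, 212 to several and 328 to none; RefSeq (GRCm38.p6) changed 0 symbols. R 4.3.3 with limma 3.58.1 fitted floored log2 values of all 12 arrays with a mean per group (6 residual and 2.86 prior degrees of freedom). P-values are two-sided, adjusted by Benjamini and Hochberg over all tested probe sets, threshold 0.05. Errors are standard errors of the log2 difference. The labels tell of separate dissections, but not of separate litters, so p-values measure the spread between these samples.

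Named were the 12 largest called differences per direction with equal signs in both replicates, called members of 28 gene lists with their defining members, and the 5 widest disagreements. A gene's values are those of its passing probe set with the highest mean. The members and lists were chosen with earlier results of these data known. In simulated arrays of this comparison over 5825 probe sets, 36% of changes of 1 log2 unit and 85% of changes of 2 were called, with 12 false calls among 133. The simulated noise was independent between arrays and had no floor. Deviations of same-numbered real arrays correlate (0.49 for medial with ventral), so these rates need not hold for the real arrays. Promoters are RefSeq's. The alternatives changed the floor, filter, normalization, scale, variance model, block and arrays.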

Additional observations from a re-analysis of the deposited data

How the results depend on the processing

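The 14 alternatives turned no direction among the 118 called genes that were named or listed. Changes of the filter, variance model, block or other groups' arrays leave the estimated difference as it is, so they could not turn it. Outside the leave-outs, calls were kept least often without a filter (74 of 118), with only the medial and ventral arrays (87) and at the higher floor (98). Counts below are called probe sets in all, higher and lower in medial. A lower floor gave 653, 359 and 294, a higher one 627, 317 and 310, no filter 467, 244 and 223, a stricter filter 543, 278 and 265, quantile normalization 646, 327 and 319, the arcsinh scale 660, 360 and 300, trended robust variances 683, 348 and 335, and a fit without the rostral and occipital arrays 575, 298 and 277. A fit of only the 4 medial and ventral arrays gave 354, 185 and 169; it has fewer residual degrees of freedom. Leaving out a medial or ventral array gave 215 to 255 in all, 120 to 147 higher and 95 to 120 lower, and 54 of the 118 genes passed in all 4 such fits. Replicate number as a block (replicate block) gave 1065, 580 and 485, with 657 of the calls reported above among them, and changed no call of the 118. Of 170 listed genes not called, 23 passed with the block, among them Btg2, Ccnd2, Gad2, Hes1, Nfic, Pdgfra, Pou3f3, Tac1 and Zbtb20, given above as not passing. The labels do not say what a shared number means. Deviations of same-numbered arrays correlated above 0.1 in 14 of 15 pairs of groups, at 0.49 for medial with ventral and up to 0.56, and at -0.06 for rostral with occipital. Low signal limits the folds of genes near the floor, and 2 arrays a piece limit every difference.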

Other observations

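Some further groups were put together after the values had been seen, so their counts are descriptions without a test of the group. Over all tested genes, 6.82% were higher in medial and 5.68% lower. Among imprinted genes, expressed from the copy of only a single parent, 6 of 15 tested were lower in medial and 1 was higher, with a median log2 difference of -0.46. Ndn (necdin) read 16441 and 17597 on the medial arrays and 42439 and 40296 on the ventral arrays, with no overlap and a difference of -1.28 ± 0.16 (adjusted p = 0.00212; limma). Blcap read 4883 and 4477 on the medial arrays and 14642 and 12886 on the ventral arrays and its neighbour Nnat (neuronatin) 53669.9 and 54108 on the medial arrays and 100145 and 81459.6 on the ventral arrays. Differences of the others were Meg3 (-1.47), Peg3 (-1.29) and Magel2 (-1.58). Plagl1, a zinc-finger factor, was higher at 1.52 ± 0.28. Ndn, Blcap and Peg3 passed in all 4 leave-outs.

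Of 15 Polycomb group genes, which keep chromatin repressed, 5 were higher in medial and 1 lower. The methyltransferase Ezh2, also in the cell cycle list, read 7954 and 8958 on the medial arrays and 3814 and 3608 on the ventral arrays (1.19 ± 0.17), and Cbx2 (1.36), Pcgf2 (0.94), Suz12 (0.88) and Bmi1 (0.63) were higher too, while Cbx6 was lower (-1.05 ± 0.26). Among 12 genes of the Hippo growth pathway the co-activators Wwtr1 (1.74 ± 0.37) and Yap1 (1.03 ± 0.26), their partner Tead2 (1.75 ± 0.36) and Frmd6 (1.32 ± 0.26) were higher and 0 were lower, none held in all 4 leave-outs. The growth factor receptor Fgfr1 read 3744 and 5465 on the medial arrays and 1089 and 1368 on the ventral arrays (1.89 ± 0.26). Of 8 genes for regulators of G-protein signalling, 3 were lower in medial: Rgs7 (-2.10), Rgs2 (-1.70) and Rgs10 (-1.33).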
